A study of Mus musculus with 30 samples.

Results

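The difference in gene expression between CT-26 and Colon 26 tumors was compared between small and large tumors, to find the genes for which that difference changed while the tumors grew. Both models start from a mouse colon carcinoma cell line, and female BALB/c mice received cells of one line in the right flank. The comparison used 24 of the 30 libraries of the series, 4 tumors of each model at 100, 400 and 800 mm3, and the other 6 libraries, 3 cultures of each line, served for levels only. The volumes of CT-26 tumors were 103.33 to 145.86, 400.47 to 464.68 and 810.36 to 938.57 mm3 at the 3 sizes, and Colon 26 tumors 102.9 to 124.88, 401.52 to 466.73 and 807.93 to 963.18 mm3. The labels name no antibody for any tumor, although their treatment text describes antibody dosing, and the tumors were taken as untreated without a further check. They give neither the age of the mice nor the days since implantation, so that size and time in the host cannot be told apart. They also do not say that the tumors of a group came from separate mice, so the p-values measure the spread between these tumors. Each model is 1 cell line, and a difference between the models is a difference between those lines and the tumors they form.

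A tumor in bulk RNA-seq is a mixture of cancer cells and of host cells such as leukocytes, fibroblasts, vessels and neighbouring skin or muscle. As a transplanted tumor grows, both the cancer cells and this mixture can change, and type I interferon from either can switch on a set of antiviral genes in all of them. In bulk RNA, fewer cells of a type and less RNA per cell cannot be told apart.

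The model difference of a gene is the log2 ratio of Colon 26 over CT-26, and the change of the model difference is its value at 800 mm3 minus its value at 100 mm3, tested in one edgeR quasi-likelihood fit of the 6 groups. A positive change means that the gene moved toward Colon 26 with size. Levels are counts scaled to a common library size (CPM, after TMM scaling), listed in the order of replicates 1 to 4, which are only names. Gene counts summed to 22923606 to 35681914 per tumor, and mitochondrially encoded genes took 1.18 to 1.59% of them. No pair of tumors in a group looked like repeats of 1 library, since the 36 pairs differed by 9.86 to 73.9 times the sampling noise.

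Few genes were called for a change of the model difference. Of 16487 genes tested, 8 (0.0485%) were called at an adjusted p of at most 0.1 and a log2 change of at least 1. The difference moved toward Colon 26 for Krt18, Styk1 and the pseudogenes Gm2011 and Gm9042, and toward CT-26 for Dpep2, Dpep3, Ceacam1 and the long noncoding RNA Gm39822, 4 genes (0.0243%) each way. Without the minimum size 38 genes (0.23%) passed, 27 toward Colon 26 (0.164%) and 11 toward CT-26 (0.0667%), and the 30 that were not called changed by 0.33 to 0.92 on the log2 scale. At an unadjusted p under 0.05 there were 1792 genes (10.9%), 964 positive (5.85%) and 828 negative (5.02%). With 4 tumors a group, a gene that was not called is not thereby shown to be unchanged.

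On GRCm38, GENCODE M21 places Krt18 (ENSMUSG00000023043.7) at chr15:102028180-102032027, Styk1 (ENSMUSG00000032899.14) at chr6:131299142-131353597, Dpep2 (ENSMUSG00000053687.15) at chr8:105984944-105991759, Dpep3 (ENSMUSG00000031898.9) at chr8:105973513-105979429 and Ceacam1 (ENSMUSG00000074272.10) at chr7:25461707-25477603. It places Gm39822 (ENSMUSG00000110618.1) at chr11:51898966-51909624, Gm2011 (ENSMUSG00000107741.2) at chr3:40846820-40875388, Gm9042 (ENSMUSG00000114409.1) at chr19:36404447-36406110 and Ubald2 (ENSMUSG00000050628.6) at chr11:116434094-116439077.

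The number of called genes depended on single tumors. It was 79 without CT-26 replicate 1 at 800 mm3, 24 without CT-26 replicate 4 or without Colon 26 replicate 1 at 400 mm3, and 14 without CT-26 replicate 1 at 100 mm3. It was 0 without Colon 26 replicate 2 at 100 mm3 or replicate 3 at 800 mm3. It was 4 without CT-26 replicate 2 at 400 mm3 and 3 without any 1 of CT-26 replicate 4 at 100 mm3, Colon 26 replicate 4 at 100 mm3 and Colon 26 replicate 4 at 800 mm3. Without any 1 of 11 other tumors a single gene was called. These were CT-26 replicate 3 at 100 mm3, replicate 1 at 400 mm3 and replicates 2, 3 and 4 at 800 mm3, and Colon 26 replicates 1 and 3 at 100 mm3, replicates 2, 3 and 4 at 400 mm3 and replicate 1 at 800 mm3. Of the 24 fits that each left out 1 tumor, Gm39822 was called in 22, Krt18, Gm2011 and Gm9042 in 8, Styk1 in 7, Ceacam1 in 6 and Dpep2 and Dpep3 in 5. DESeq2 called 62 genes, 19 positive and 43 negative, which included 7 of the 8.

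**Figure D1:**
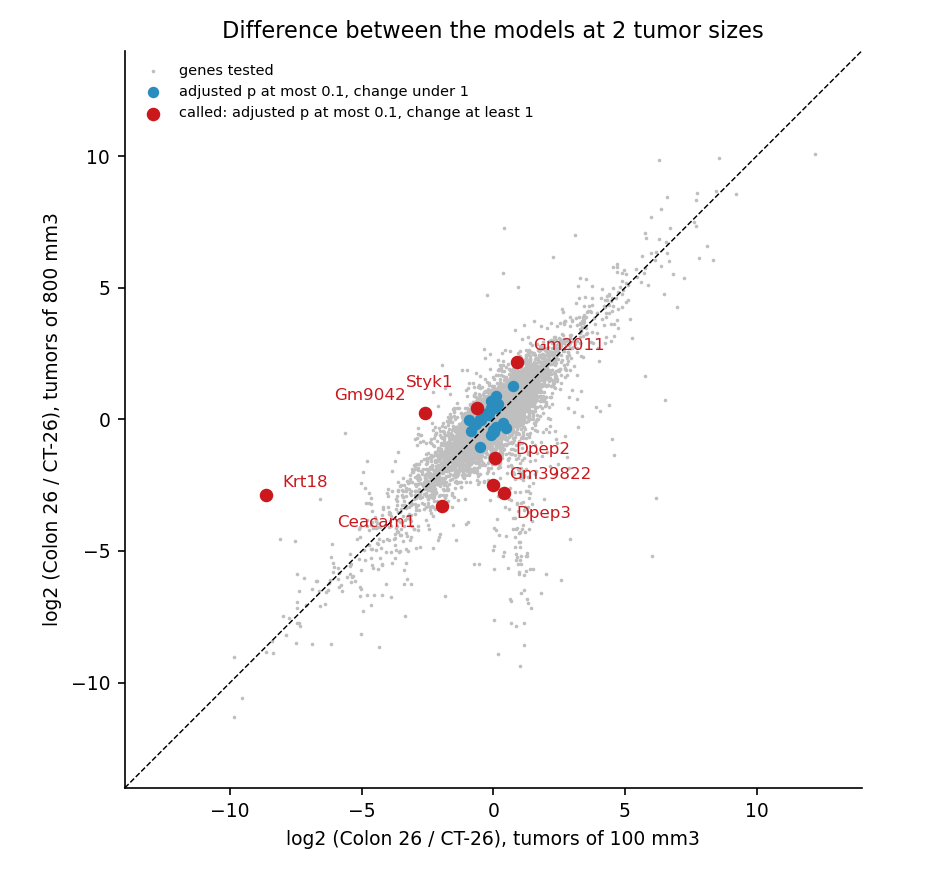
Model difference of each of the 16487 genes tested at 100 mm3 (x axis) and at 800 mm3 (y axis), both as log2 of Colon 26 over CT-26, with the line of equal values dashed. The 8 called genes are red and named, the 30 genes that passed the adjusted p with a change under 1 are blue, and most genes lie near the line (Pearson's r across genes 0.806).

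For most genes the model difference was alike at both sizes within its error. The median change over all genes was 0.01, the median absolute change 0.17 and the median SE 0.19. For 11015 genes (66.8%) the 95% interval of the change lay within 1 in either direction, so that it held no change of 2-fold or more. The model differences at both sizes had a Pearson's r of 0.806 across genes, which do not count as replicates.

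A gene that differed between the models at one size but not at the other was rarely shown to have changed. The models differed at 100 or 800 mm3, by the same thresholds in the same fit, for 3063 genes, 2344 at 100 mm3 (14.2%) and 2451 at 800 mm3 (14.9%), of which 612 passed at 100 mm3 only and 719 at 800 mm3 only. Of these 1331 genes, 5 were called for a change of the model difference, 7 passed the adjusted p and 352 had an unadjusted p under 0.05.

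Krt18, the keratin of simple epithelia that pairs with Krt8 in intermediate filaments, had the largest change of the called genes. In CT-26 tumors its level was 14.9, 8.001, 10.7 and 14.6 CPM at 100 mm3, 14.4, 8.51, 8.56 and 6.09 CPM at 400 mm3 and 20.1, 13.1, 11.95 and 9.20 CPM at 800 mm3. In Colon 26 tumors there were 0, 1, 2 and 0 counts at 100 mm3 and 2, 1, 0 and 0 counts at 400 mm3, and at 800 mm3 62, 144, 28 and 1 counts, or 1.99, 4.34, 0.929 and 0.0370 CPM. Thus 3 of the 4 large Colon 26 tumors stood above all smaller ones of that model, and all of them stayed below every CT-26 tumor. The summed counts of 235 at 800 mm3 and 3 at 100 mm3 gave a ratio of 75.5 (95% exact interval of counting error, 25.5 to 369). The fitted change of the model difference was 5.78 (SE 1.19, adjusted p = 0.079, edgeR), and this size depends on the prior count because the small Colon 26 tumors were near 0. It was 9.80 (adjusted p = 0.074) with the exact volume as a covariate, and limma gave 0.86 on log2(FPKM + 1) (adjusted p = 0.48) and 2.67 on log2(FPKM + 0.1) (adjusted p = 0.24). Cultured CT-26 cells held 16.02, 16.3 and 16.4 CPM, and cultured Colon 26 cells 0, 0 and 3 counts.

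The promoter of Krt18 is shown because this gene had the largest change among those called toward Colon 26. RefSeq places the 250 bases before its start at chr15:102027966-102028215 on the plus strand of GRCm38.p6, and none of the 4 motifs searched there on both strands occurred in this window. They were the interferon-stimulated response element, which has GAAA on both sides of 2 free bases, the TATA box TATAAA, the GC box GGGCGG and the CCAAT box.
Krt18: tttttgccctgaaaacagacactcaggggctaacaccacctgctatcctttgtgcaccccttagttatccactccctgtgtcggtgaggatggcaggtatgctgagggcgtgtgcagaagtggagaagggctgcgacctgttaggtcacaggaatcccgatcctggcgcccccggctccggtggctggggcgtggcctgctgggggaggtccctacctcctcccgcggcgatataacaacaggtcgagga

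Krt8, Krt7, Epcam and Krt19, genes of simple epithelium chosen after their values were seen, were also higher in most large Colon 26 tumors than in small ones. Krt8, whose gene lies 23697 bases away with no annotated gene between, had 0.262, 0.139, 0.188 and 0.209 CPM in the Colon 26 tumors of 100 mm3 and 3.88, 4.92, 1.16 and 0.0370 CPM in those of 800 mm3. Krt7 had 0.360, 0.361, 0.263 and 0.334 and 1.03, 1.84, 0.697 and 0.185 CPM, and Epcam, an adhesion protein of epithelial cells, had 0.0328, 0, 0.113 and 0.167 and 0.738, 1.15, 0.630 and 0.0370 CPM. Replicate 4 was the lowest of the large Colon 26 tumors for Krt8, Krt7 and Epcam. Krt19, another keratin of simple epithelia, had 1.61, 1.67, 1.47 and 1.84 CPM in small and 4.52, 8.20, 2.45 and 2.78 CPM in large Colon 26 tumors, so that replicate 3 was the lowest and all of them, replicate 4 included, were above every small one. Krt8 (change 4.04, adjusted p = 0.17), Krt7 (2.68, adjusted p = 0.22) and Krt19 (1.74, adjusted p = 0.50) did not pass, and Epcam was not tested for its low counts. Of the 21 listed epithelial genes 8 were tested, 6 with a positive and 2 with a negative change (lowest -1.28), and only Krt18 passed. All 21 summed to 26.2 to 34.8 CPM in small and 21.4 to 48.6 CPM in large Colon 26 tumors, ranges that overlapped.

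Summed markers of mammary gland epithelium, a tissue that lies under the skin of female mice, were also higher in large than in small Colon 26 tumors, at low levels. Only 2 of the 11 listed genes had enough counts to be tested, and neither passed (lowest adjusted p = 0.27, edgeR). The 11 listed genes summed to 0.263 to 0.376 CPM in the Colon 26 tumors of 100 mm3, 0.0921 to 0.837 CPM at 400 mm3 and 0.556 to 3.17 CPM at 800 mm3, and to 2.79 to 10.1, 3.42 to 5.78 and 4.96 to 25.8 CPM in the CT-26 tumors. The receptor Prlr had 0.513, 0.965, 0.962 and 0 CPM in the large Colon 26 tumors, which left replicate 4 at 0. The casein gene Csn3 had 0.0655, 0, 0 and 0 CPM in small and 0.417, 0.543, 0.630 and 0.370 CPM in large Colon 26 tumors, so that replicate 4 too was above all small ones, and 4.34, 7.06, 9.61 and 25.5 CPM in large CT-26 tumors, most of their sums. Other listed genes were low in the large CT-26 tumors, with means of 0.126 CPM for Prlr, 0.0751 CPM for Cited1 and 0.113 CPM for Ltf. In Colon 26, Ltf ranged from 0.0833 to 0.131 CPM in small and from 0 to 0.633 CPM in large tumors, which overlapped. The whey protein gene Wap was at 0 in all 24 tumors. The part of such tissue in the Krt18 result was not tested.

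Styk1, a transmembrane kinase, exchanged the order of the models. CT-26 tumors held 52.9, 47.7, 33.4 and 31.3 CPM at 100 mm3, 31.97, 37.1, 27.1 and 34.7 CPM at 400 mm3 and 28.8, 25.02, 23.1 and 20.1 CPM at 800 mm3. Colon 26 tumors held 25.7, 24.6, 28.2 and 28.2 CPM, 36.9, 26.6, 31.02 and 28.6 CPM and 29.7, 33.03, 36.96 and 30.1 CPM at these sizes. All 4 small CT-26 tumors were above all 4 small Colon 26 tumors, and at 800 mm3 all 4 Colon 26 tumors were above all 4 CT-26 tumors. The model difference was -0.63 at 100 mm3 (adjusted p = 0.0014) and 0.42 at 800 mm3 (adjusted p = 0.023), a change of 1.05 (SE 0.21, adjusted p = 0.079). Within CT-26 the level fell by 0.77 on the log2 scale (adjusted p = 0.039), and within Colon 26 the difference of 0.28 did not pass (adjusted p = 0.45). It was between 11.02 and 11.7 CPM in the CT-26 cultures and between 17.5 and 19.8 CPM in the Colon 26 cultures.

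Dpep2 and Dpep3, which encode membrane-bound dipeptidases and lie 5514 bases apart on the minus strand of chromosome 8, both moved toward CT-26. Dpep2, which can convert leukotriene D4 to leukotriene E4, had 29.95, 30.8, 38.1 and 25.03 CPM in CT-26 at 100 mm3, 61.4, 42.99, 51.5 and 35.5 CPM at 400 mm3 and 35.6, 60.4, 77.4 and 105 CPM at 800 mm3. In Colon 26 it had 28.7, 35.1, 35.9 and 29.1 CPM, 22.6, 24.8, 32.4 and 21.6 CPM and 30.2, 24.01, 24.02 and 21.2 CPM. The small tumors of the models overlapped, while every large CT-26 tumor was above every large Colon 26 tumor, with replicate 1 nearest to them. The same tumor had the highest type I interferon and neutrophil scores of its group, whose part in the result was not tested. The model difference was 0.06 at 100 mm3 and -1.48 at 800 mm3, a change of -1.54 (SE 0.33, adjusted p = 0.081), and Dpep2 rose by 1.17 on the log2 scale within CT-26 (adjusted p = 0.047).

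Dpep3, the lower of the neighbours, had 0.748, 1.15, 1.33 and 1.38 CPM in small CT-26 tumors and 0.667, 2.35, 2.94 and 6.58 CPM in large ones. In Colon 26 it had 0.983, 2.31, 1.73 and 1.09 CPM in small tumors and 0.449, 0.302, 0.431 and 0.630 CPM in large ones. CT-26 replicate 1, at 0.667 CPM, was the large CT-26 tumor nearest to the large Colon 26 tumors, and the 4 tumors of that group spread more than those of any other group. The change was -3.20 (SE 0.68, adjusted p = 0.081), and limma on log2(FPKM + 1) gave -1.18 (adjusted p = 0.20). Cultured cells held 23.7, 24.2 and 23.1 CPM of Dpep2 in CT-26 against 1.29, 1.06 and 1.34 CPM in Colon 26, and 1.61, 0.791 and 0.808 against 0.0549, 0.0245 and 0 CPM of Dpep3. On the same strand, the exons of Dpep2 share bases with another annotated entry also named Dpep2 and with Gm22972. Reads may be shared with these even if strand was used in the counting. The exons of Dpep2 overlap those of Dus2 on the other strand, and Gm45752, also on the other strand, shares exon bases with both Dpep2 and Dpep3. How the authors' counting treated strand is not given in the sources used here, so reads of these genes may be shared.

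The promoter of Dpep3 is shown because this gene had the largest change among those called toward CT-26, and that of Dpep2 has no entry in the table used. Its 250 bases before the start, at chr8:105979420-105979669 on the minus strand of GRCm38.p6 in RefSeq, held none of the 4 motifs named above.
Dpep3: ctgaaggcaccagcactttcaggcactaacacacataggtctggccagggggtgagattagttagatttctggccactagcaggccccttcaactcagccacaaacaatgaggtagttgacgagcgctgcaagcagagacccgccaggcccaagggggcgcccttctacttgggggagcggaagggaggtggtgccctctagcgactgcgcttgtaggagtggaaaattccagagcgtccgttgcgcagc

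Ceacam1, an adhesion receptor of epithelial and immune cells, was higher in CT-26 at every size, and the gap widened. CT-26 tumors had 28.6, 24.4, 29.9 and 19.97 CPM at 100 mm3, 32.05, 27.5, 35.6 and 35.4 CPM at 400 mm3 and 32.5, 37.1, 58.5 and 52.5 CPM at 800 mm3. Colon 26 tumors had 8.22, 5.19, 6.28 and 6.60 CPM, 6.83, 3.88, 5.43 and 5.09 CPM and 3.53, 5.97, 3.98 and 4.85 CPM. No CT-26 tumor overlapped any Colon 26 tumor, and all 4 large CT-26 tumors exceeded all 4 small ones. The model difference went from -1.97 to -3.30 (change -1.33, SE 0.29, adjusted p = 0.085). Within CT-26 the level rose by 0.81 on the log2 scale (adjusted p = 0.098), and within Colon 26 it differed by -0.52 (adjusted p = 0.30). Cultures had 17.9, 19.7 and 18.04 CPM in CT-26 and 0.604, 0.466 and 0.548 CPM in Colon 26.

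The other 3 called genes were weakly expressed and were named after their values were seen, since the rule for named genes asked for a mean of 100 counts. Gm39822, a long noncoding RNA on chromosome 11, had 26, 26, 35 and 34 counts in small and 45, 68, 59 and 47 counts in large CT-26 tumors. In Colon 26 it had 39, 48, 23 and 20 counts in small tumors, 11, 16, 10 and 15 counts at 400 mm3 and 11, 8, 6 and 12 counts in large tumors. Small tumors of the models overlapped and large ones did not, and the change was -2.47 (SE 0.40, adjusted p = 0.028). In the cultures of both lines it had at most 7 counts.

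Gm2011, a transcribed pseudogene on chromosome 3, ranged from 0.641 to 0.951 CPM in small and 0.408 to 0.574 CPM in large CT-26 tumors. The Colon 26 tumors ranged from 1.19 to 1.69 CPM in small and 1.81 to 2.48 CPM in large tumors, which lay above all small ones, and the change was 1.28 (SE 0.25, adjusted p = 0.079). Its exons overlap Abhd18 on the same strand and Mfsd8 on the other, so its reads cannot be told apart from theirs with certainty. Gm9042, a processed pseudogene on chromosome 19, had 11, 10, 11 and 15 counts in small CT-26 tumors and 1, 4, 1 and 2 in small Colon 26 tumors, against 10, 5, 5 and 7 and 8, 9, 8 and 7 in large ones. Its change was 2.84 (SE 0.56, adjusted p = 0.079), and as a copy of another gene it may share that gene's reads. On log2(FPKM + 1), which understates the change of low genes, limma gave -0.62 for Gm39822, 0.56 for Gm2011 and 0.31 for Gm9042, and on log2(FPKM + 0.1) it gave 1.54 for Gm9042.

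**Figure D2:**
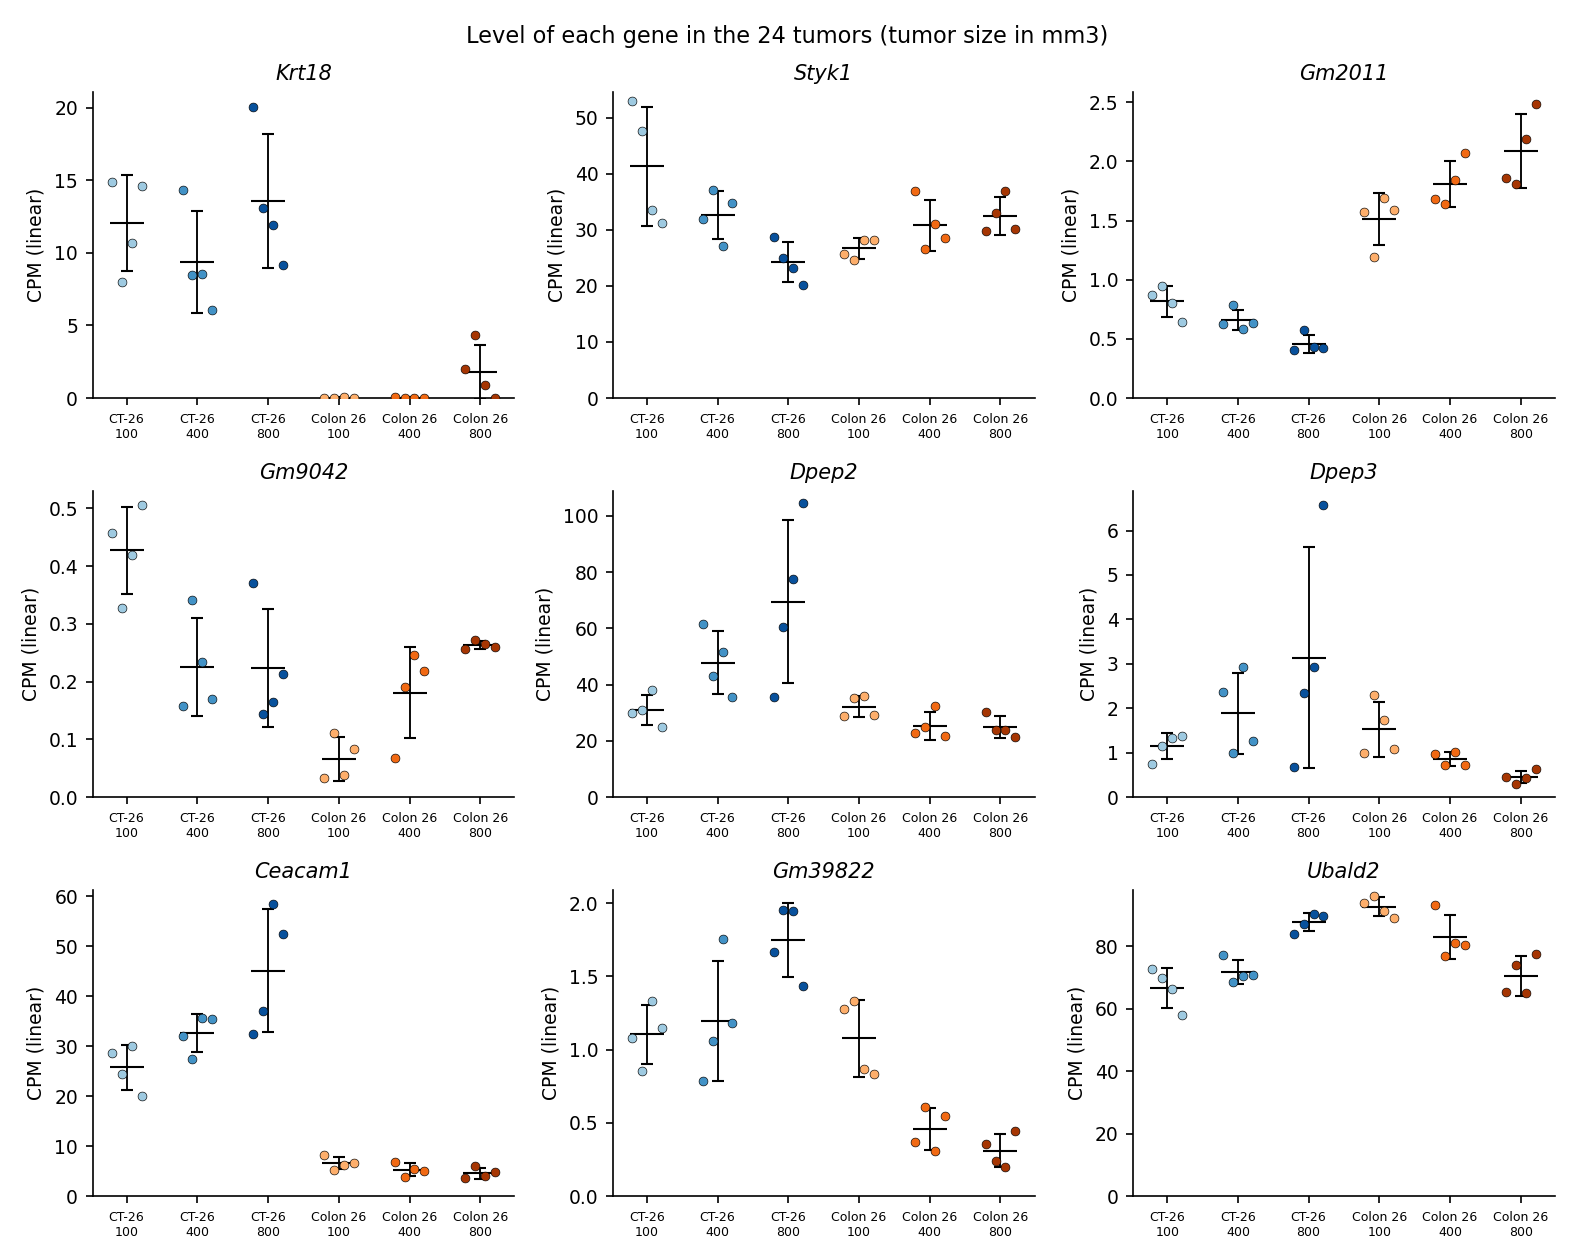
Level in CPM (y axis, linear, from 0) of the 8 called genes and of Ubald2 in each of the 24 tumors by model and size in mm3 (x axis), with points for tumors, a dash for the mean and a bar for the SD of 4 tumors. Dpep2 and Ceacam1 stand highest in the large CT-26 tumors, Krt18 appears in 3 of the 4 large Colon 26 tumors, and Ubald2 goes up in one model and down in the other.

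Ubald2, a gene of a UBA-like domain protein whose role is little known, had the lowest p of all genes although its change was under the minimum of 1. In CT-26 its level was 72.9, 69.7, 66.5 and 58.1 CPM at 100 mm3, 77.2, 68.4, 70.6 and 70.7 CPM at 400 mm3 and 83.96, 87.3, 90.5 and 89.7 CPM at 800 mm3. Colon 26 tumors had 93.9, 96.2, 91.3 and 89.2 CPM, 93.2, 76.9, 81.1 and 80.6 CPM and 65.5, 74.2, 64.96 and 77.5 CPM. The order of the models turned, since all small CT-26 tumors were below all small Colon 26 tumors and all large CT-26 tumors were above all large Colon 26 tumors. The model difference was 0.47 at 100 mm3 (adjusted p = 1.31e-05) and -0.32 at 800 mm3 (adjusted p = 0.00085), a change of -0.79 (SE 0.10, adjusted p = 0.0020). Ubald2 rose by 0.40 within CT-26 (adjusted p = 0.029) and fell by 0.39 within Colon 26 (adjusted p = 0.015), the only gene of the 38 that passed in both models. It was also the only gene of all tested (0.00607%) for which any change of the model difference over the 3 sizes passed (adjusted p = 0.0077). The adjusted p stayed between 0.00060 and 0.0090 when any 1 tumor was left out. Cultures held 58.5, 63.1 and 57.2 CPM in CT-26 and 82.4, 79.3 and 78.8 CPM in Colon 26.

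The promoter of Ubald2 is printed because of this result, with each CCAAT box on either strand in capitals, the letters bound by the factor NF-Y. The 250 bases before the start lie at chr11:116433844-116434093 on the plus strand of GRCm38.p6 in RefSeq and hold 4 such boxes, which end 218, 163, 82 and 48 bases before the start. Of the 32851 promoters of this length, 33.8% held at least 1 CCAAT and 0.84% held 4 or more.
Ubald2: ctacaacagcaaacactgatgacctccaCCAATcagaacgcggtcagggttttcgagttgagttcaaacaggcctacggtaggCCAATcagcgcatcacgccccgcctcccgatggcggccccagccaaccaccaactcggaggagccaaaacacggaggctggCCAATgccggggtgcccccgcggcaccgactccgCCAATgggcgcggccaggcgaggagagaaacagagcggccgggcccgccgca

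The rest of the 38 genes changed by small amounts with small errors, and they are given by what each is known to do. Among the proteins that bind or process mRNA, Luc7l, a component of the U1 particle, had 81.96 CPM on average in small and 68.6 CPM in large CT-26 tumors, and 65.0 and 78.6 CPM in Colon 26 (change 0.53, adjusted p = 0.051). Clk4, a kinase of splicing proteins, had 27.2, 33.2, 31.2 and 30.7 CPM in small and 41.7, 41.1, 42.8 and 41.7 CPM in large Colon 26 tumors, and 30.5 and 28.4 CPM on average in CT-26 (change 0.56, adjusted p = 0.075). Its large Colon 26 tumors lay above all other tumors. The splicing regulator Tra2a (0.50) and the mRNA export receptor Nxf1 (0.33) passed at an adjusted p of 0.075. Those named after their values were seen were Rbm4b (0.69), Srsf7 (0.50), Luc7l3 (0.40) and Pnisr (0.40), at 0.081 to 0.099. No list of such genes had been set up, so how other genes of this kind behaved was not examined.

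Other genes that moved toward Colon 26 have varied roles. Ppp1r12b, a regulatory subunit of myosin phosphatase, had 86.4, 106, 88.2 and 124 CPM in small and 84.3, 81.9, 68.5 and 63.4 CPM in large CT-26 tumors, against 51.8, 54.2, 52.9 and 53.2 and 74.5, 81.4, 76.97 and 62.03 CPM in Colon 26. Its model difference of -0.93 at 100 mm3 was -0.01 at 800 mm3 (change 0.92, SE 0.17, adjusted p = 0.075), and the large tumors of the models overlapped where the small ones did not. Bdnf, a neurotrophin named after its values were seen, averaged 36.9 CPM in small and 61.6 CPM in large Colon 26 tumors and 34.1 and 33.5 CPM in CT-26 (change 0.76, adjusted p = 0.081). The pseudogene Magef1 (0.77), the cAMP phosphodiesterase Pde7a (0.42), the laforin-binding protein Epm2aip1 (0.50) and, named after their values were seen, the p53 inhibitor Mdm4 (0.43), the inhibitor of apoptosis Birc2 (0.52) and DNA topoisomerase Top1 (0.40) also passed.

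Of the genes that moved toward CT-26, Cdt1, Cdca5 and Wdr62 are described together after their values were seen, and none of the 35 genes of the proliferation list passed. Cdt1, which licenses DNA replication, had 78.98, 75.7, 73.97 and 76.5 CPM in small and 57.2, 68.6, 60.9 and 63.4 CPM in large Colon 26 tumors, against means of 71.3 and 76.6 CPM in CT-26 (change -0.39, adjusted p = 0.079). Cdca5, which holds sister chromatids together, averaged 29.6 and 24.5 CPM in Colon 26 and 29.0 and 33.9 CPM in CT-26 (change -0.50, adjusted p = 0.079). The spindle pole protein Wdr62 averaged 18.1 and 14.1 CPM in Colon 26 and 19.1 and 21.6 CPM in CT-26 (change -0.53, adjusted p = 0.081). All 4 large Colon 26 tumors were below all other tumors for Cdca5, and so they were for Wdr62 but for Colon 26 replicate 1 at 400 mm3, which had 14.4 CPM. The chromatin protein Chrac1 (-0.54), the Mediator subunit Med16 (-0.49) and the ESCRT protein Chmp1a (-0.41) passed at 0.081 to 0.099, and the exons of Chrac1 overlap Ago2 on the other strand.

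Features of the genes past the adjusted p are given here as counts with no test. Of the 38, 37 changed in opposite directions in the 2 models, against 44.6% of all genes, which the choice by the difference of these changes itself favors. Of these, 26 were lower in large CT-26 and higher in large Colon 26 tumors, and 11 the reverse. The change with size passed the adjusted p in CT-26 for 10 of the 38, against 85 of all genes tested (0.516%). In Colon 26 it passed for 14 of the 38, against 130 of all genes tested (0.789%). It passed in both for 1 and in neither for 15, and the same choice of genes favors such passing. In all, 35 of the 38 genes (92.1%) reached 1 CPM in a culture of at least 1 line, against 76.1% of all genes tested. The choice by the adjusted p favors this too, since small changes pass only in genes with enough counts for a small error. Their transcripts had a median GC content of 43.3% for the 27 positive genes and 55.7% for the 11 negative ones, against 49.4% for all genes. The median change over all genes was 0.05 in the 4120 genes lowest and -0.03 in the 4120 genes highest in GC, and with a correction for GC content 11 genes were called, the 8 among them.

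**Figure D3:**
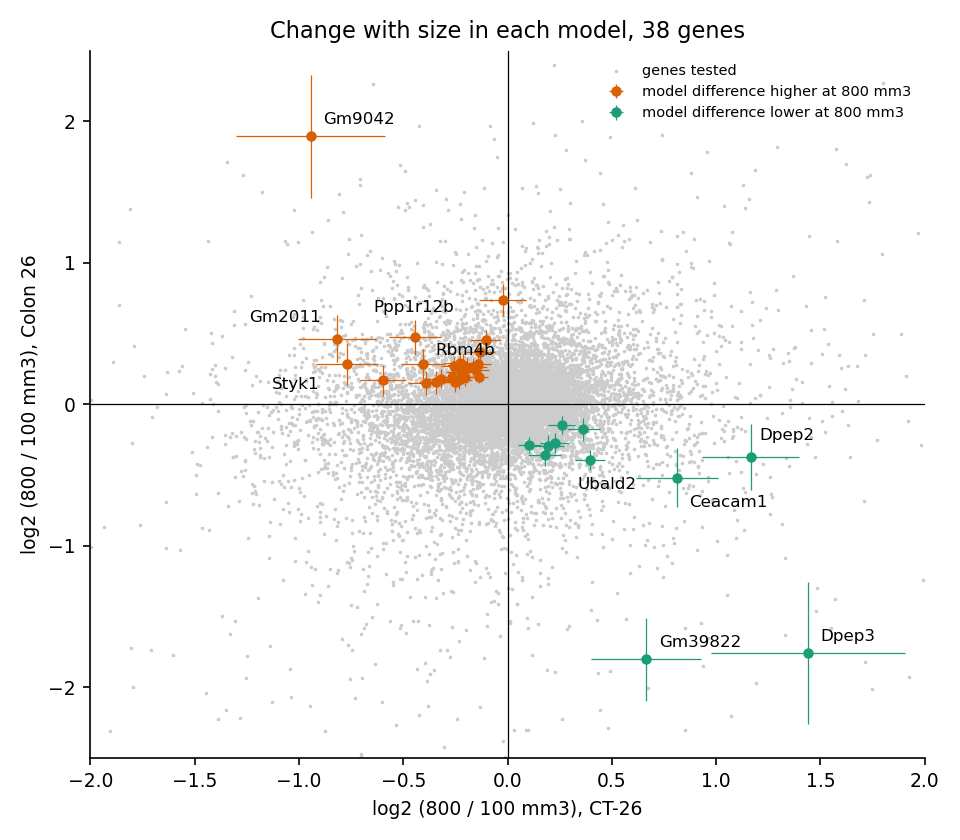
Change of each gene from 100 to 800 mm3 within CT-26 (x axis) and within Colon 26 (y axis), both as log2 of 800 over 100 mm3, for all genes tested in grey and for the 38 genes past the adjusted p with bars of 1 SE. Orange genes, with a model difference higher at 800 mm3, lie to the upper left and green ones to the lower right. Outside the axes fall 222 genes, among them Krt18 (0.17 in CT-26 and 5.95 in Colon 26).

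The middle size gave no gene that passed. Tested from 100 to 400 mm3, no gene passed the adjusted p (edgeR), while 1381 (8.38%) had an unadjusted p under 0.05 and DESeq2 called 30 genes. Without CT-26 replicate 4 at 400 mm3 edgeR called 52 genes, without CT-26 replicate 2 at 100 mm3 17, without CT-26 replicate 1 at 800 mm3 7 and without any 1 of CT-26 replicate 4 at 100 mm3, CT-26 replicate 2 at 400 mm3 and Colon 26 replicate 1 at 400 mm3 1 gene. For 36 of the 38 genes (94.7%) the model difference at 400 mm3 lay between those at 100 and 800 mm3, against 32.9% of all genes, which the choice of genes with a large gap between 100 and 800 mm3 favors. The 2 changes share the tumors of 100 mm3, so their values are only set side by side. They were 0.37 and 5.78 for Krt18, 0.54 and 1.05 for Styk1, -0.97 and -1.54 for Dpep2, -1.53 and -3.20 for Dpep3, -0.65 and -1.33 for Ceacam1 and -0.26 and -0.79 for Ubald2. Tra2a was nearly as far at 400 mm3 (0.43 against 0.50), as was Magef1 (0.66 against 0.77).

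Outside Krt18, none of the members of 35 lists of cell types, pathways and handling passed the adjusted p, and the lists are described by counts and medians. The list genes named below were chosen after their values were seen. Of the genes switched on by type I interferon, all 28 had a positive change, with a median of 0.87 against 0.01 for all genes, of which 51.6% were positive. At an unadjusted p under 0.05 there were 7 of 28, all positive, against 5.85% of all genes in that direction. The median change with size was -0.99 within CT-26 and -0.09 within Colon 26, on the log2 scale.

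Among these interferon-stimulated genes, Isg15, a ubiquitin-like protein, had 121, 167, 71.8 and 78.8 CPM in small and 78.9, 50.7, 44.04 and 36.9 CPM in large CT-26 tumors. In Colon 26 it had 14.02, 28.6, 26.9 and 16.2 CPM in small and 10.49, 22.9, 24.6 and 18.8 CPM in large tumors (change 0.90, SE 0.44, adjusted p = 0.47). CT-26 replicate 1, at 78.9 CPM, was the only large CT-26 tumor above a small one, and it overlapped the small tumors also for Ifit1. Ifit1, an RNA-binding antiviral protein, had 58.6, 98.3, 40.01 and 44.6 and 41.3, 25.9, 18.7 and 16.9 CPM in CT-26 (change 1.12, SE 0.46, adjusted p = 0.38). Mx2, a dynamin-like GTPase, had the lowest p of the list (change 1.54, SE 0.56, adjusted p = 0.30). As a mean of log2 CPM over the 28 genes the 4 large CT-26 tumors lay at 6.21, 5.56, 5.14 and 4.77, and the small ones at 6.50, 7.13, 5.94 and 6.05. The list's median was 0.51 to 1.20 when any 1 tumor was left out.

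The promoters of Isg15 and Ifit1 are shown as 2 that hold the interferon-stimulated response element, with the element on either strand in capitals. In the 250 bases before the start, RefSeq's Isg15 (chr4:156200819-156201068, minus strand, GRCm38.p6) held 3 overlapping matches and Ifit1 (chr19:34640639-34640888, plus strand) held 2. Of the 28 listed genes 19 had a promoter in the table, and 9 of their 21 promoters (42.9%) held the element, against 2.98% of all 32851. Most of the listed promoters thus did not hold it in this window. The list was made of interferon-stimulated genes, so this share describes the list and not these tumors.
Isg15: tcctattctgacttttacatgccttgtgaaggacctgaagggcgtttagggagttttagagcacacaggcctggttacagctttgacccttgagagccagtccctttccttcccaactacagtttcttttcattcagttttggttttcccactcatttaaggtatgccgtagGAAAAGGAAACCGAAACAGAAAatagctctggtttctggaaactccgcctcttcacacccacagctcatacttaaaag
Ifit1: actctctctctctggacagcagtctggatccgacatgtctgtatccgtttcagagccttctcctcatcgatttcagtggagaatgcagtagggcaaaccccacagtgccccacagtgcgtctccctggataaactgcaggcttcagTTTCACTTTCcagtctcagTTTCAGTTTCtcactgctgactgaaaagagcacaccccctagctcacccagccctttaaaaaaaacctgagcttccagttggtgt

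Lists next to type I interferon had the same sign with larger errors. All 36 genes of interferon gamma response and MHC were positive, with a median of 0.62 and 3 of 36 at an unadjusted p under 0.05, led by the chemokine Cxcl10 (change 1.42, adjusted p = 0.39). Of the T cell genes 21 of 22 were positive with a median of 0.75, and of the cytotoxic T and NK cell genes 16 of 17 with a median of 0.88, but none of either list reached an unadjusted p under 0.05. The T cell median was -0.06 without CT-26 replicate 2 at 100 mm3, the tumor with the most Cd8a, at 23.02 CPM against 1.15 to 5.36 CPM in the other small CT-26 tumors. The cytotoxic median was 0.24 to 1.21 and that of interferon gamma 0.14 to 0.91 when any 1 tumor was left out.

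Genes of cell division had the opposite sign with small errors. Of 35 proliferation genes 31 were negative, with a median of -0.13, and 9 had an unadjusted p under 0.05, all negative. Foxm1, a transcription factor of the division cycle, had 318, 274, 262 and 278 CPM in small and 268, 277, 302 and 303 CPM in large CT-26 tumors. Foxm1 levels in Colon 26 were 208, 209, 203 and 210.01 and 155, 170.1, 181 and 173 CPM, with all large tumors below all small ones (change -0.31, SE 0.10, adjusted p = 0.21). The median change with size was 0.01 within CT-26 and -0.14 within Colon 26.

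Of the secreted factors, 15 of 16 cytokine and colony-stimulating factor genes were positive with a median of 0.30 (0.14 to 0.45 when any 1 tumor was left out), and 19 of 25 chemokine genes with a median of 0.53. Csf1, the growth factor of macrophages, had 271, 282, 241 and 226 and 244, 195, 234 and 223 CPM in small and large CT-26 tumors and 321, 373, 357 and 387 and 406, 463, 526 and 408 CPM in Colon 26 (change 0.51, SE 0.13, adjusted p = 0.13). Lif, a cytokine of the interleukin-6 family, had 29.9, 27.9, 28.5 and 28.3 and 48.2, 50.3, 57.3 and 44.7 CPM in small and large Colon 26 tumors (change 0.96, SE 0.32, adjusted p = 0.25). In both genes all large Colon 26 tumors were above all small ones.

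Genes of granulocytes and mast cells mostly had negative changes. Of 17 neutrophil genes 13 were negative with a median of -0.41, and 7 had an unadjusted p under 0.05, all negative. The median was -1.06 to -0.08 when any 1 tumor was left out. S100a9, a calcium-binding protein of neutrophils, had 1.122, 0.951, 1.14 and 0.573 CPM in small CT-26 tumors, 17.6, 20.2, 32.5 and 2.37 CPM at 400 mm3 and 37.7, 6.80, 3.50 and 5.82 CPM in large ones, against 1.38, 1.69, 2.11 and 2.42 and 1.67, 2.93, 1.36 and 1.89 CPM in small and large Colon 26 tumors (change -3.77, SE 1.06, adjusted p = 0.17). Every large CT-26 tumor was above every small one, replicate 1 by far. Lcn2, a listed neutrophil gene that epithelial cells also express, went the other way in value, with 1.70, 1.94, 9.33 and 3.22 CPM in small and 56.5, 37.1, 45.7 and 36.8 CPM in large Colon 26 tumors. In CT-26 Lcn2 rose as well, with means of 3.59 CPM at 100 mm3, 21.6 CPM at 400 mm3 and 12.1 CPM at 800 mm3. Of 9 genes of mast cells, basophils and eosinophils 8 were negative with a median of -1.44, which was 0.03 with at least 10 counts in every tumor, a filter that left 1 of them, and the mast cell tryptase Tpsab1 had 1.15, 2.17, 4.02 and 2.93 CPM in small and 0.160, 0.754, 0.398 and 0.556 CPM in large Colon 26 tumors (change -2.12, SE 0.84, adjusted p = 0.35).

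**Figure D4:**
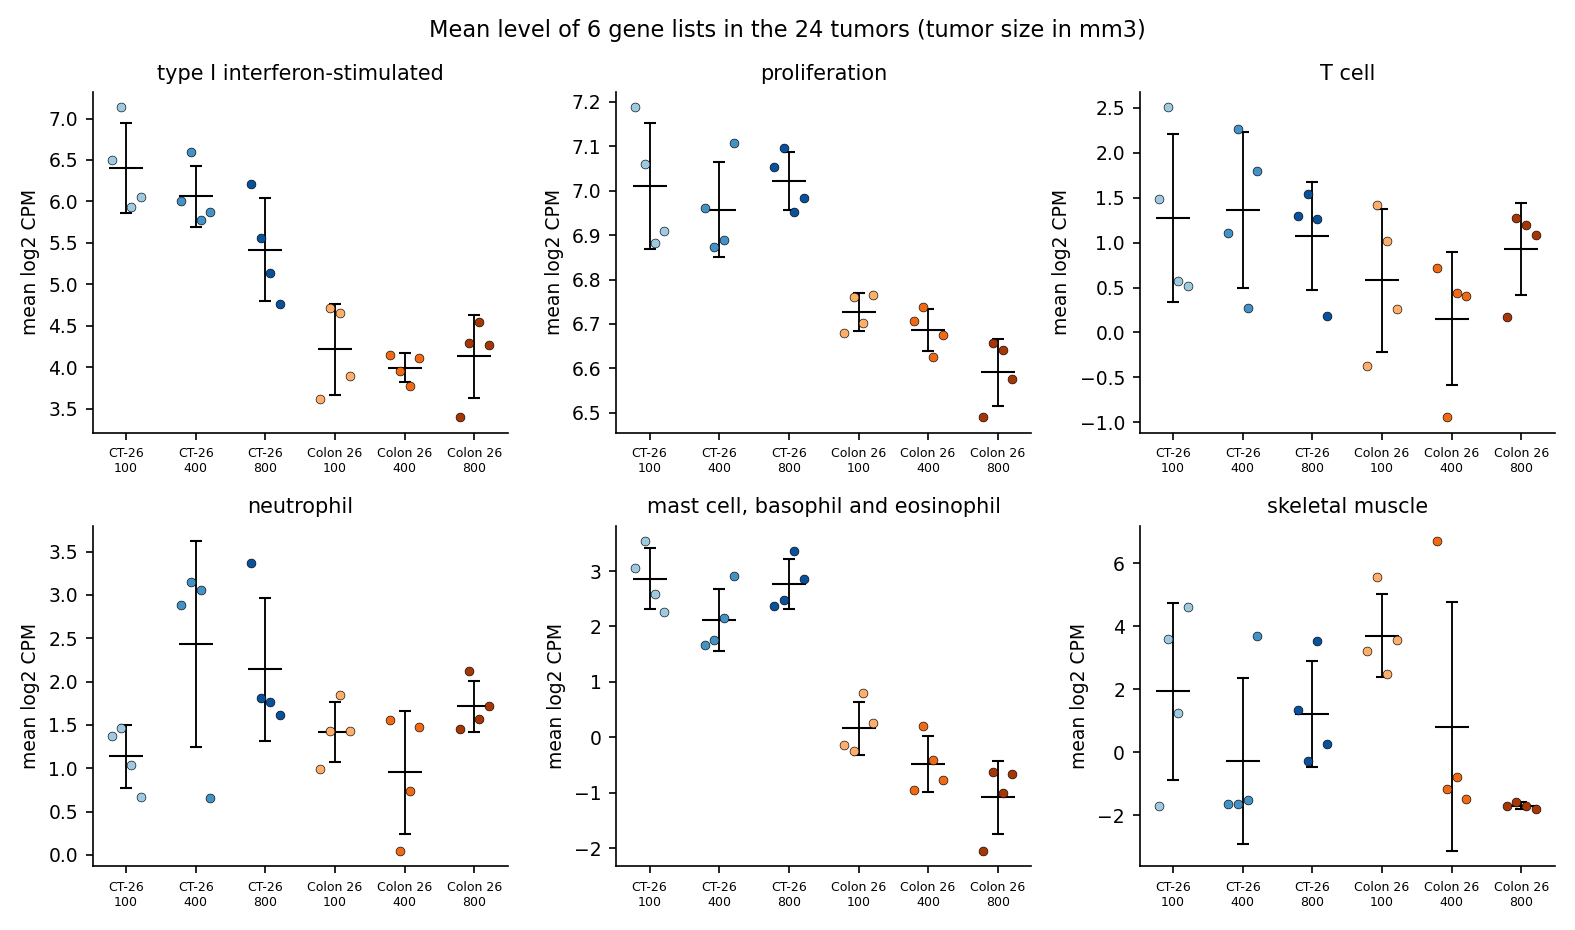
Mean log2 CPM over the genes of 6 lists (y axis) in each of the 24 tumors by model and size in mm3 (x axis), with points for tumors, a dash for the mean and a bar for the SD of 4 tumors. The type I interferon list lies at 5.94 to 7.13 in small and 4.77 to 6.21 in large CT-26 tumors, and the skeletal muscle list is high in all small Colon 26 tumors and low in all large ones.

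Skeletal muscle genes were uneven between the groups that the comparison uses. The 28 listed muscle genes summed to 365 to 2658 CPM in the small and 71.6 to 83.9 CPM in the large Colon 26 tumors, and to 154 to 1152 and 148 to 601 CPM in CT-26, with none of them at 0 in all tumors. Colon 26 replicate 1 at 400 mm3 held the most, 5191 CPM. All 28 changes were negative, with a median of -5.09 and a median SE of 2.88, and none passed the adjusted p (lowest 0.36). With the muscle score of each tumor as a covariate, 14 genes were called, among them 3 of the 8. The part of muscle in the other changes was not tested beyond this.

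Markers of other cells and of handling follow. Of 7 keratinocyte genes 6 were negative with a median of -1.41 (-0.29 for the 2 with at least 10 counts in every tumor), and Krt14 stood at 49.3 CPM in CT-26 replicate 4 at 800 mm3 against at most 0.258 CPM in the other large CT-26 tumors. Immediate early genes, which respond within minutes to stress and handling, were positive in 22 of 24 with a median of 0.38, with the lowest p for Jun, 96.6, 96.5, 121 and 152 CPM in small and 186, 167, 172 and 192 CPM in large Colon 26 tumors (change 0.68, SE 0.16, adjusted p = 0.11). Mitochondrially encoded genes were negative in 9 of 11 with a median of -0.19. Endothelial genes had a median of -0.36 (17 of 19 negative), macrophage genes 0.21 (15 of 21 positive) and fibroblast and pericyte genes 0.18 (14 of 20 positive). When any 1 tumor was left out, these medians were -0.73 to -0.11, 0.06 to 0.29 and 0.03 to 0.41. Medians were 0.53 for B and plasma cells (4 of 7 positive), 0.23 for complement (13 of 15), 0.22 for dendritic cells (9 of 14), 0.21 for regulatory T cells and checkpoints (8 of 14), 0.11 for adipocytes (8 of 15), 0.07 for erythroid cells (5 of 5), 0.05 for cartilage and bone (6 of 10) and 0.02 for Schwann cells and nerve (4 of 7). Those of regulatory T cells, adipocytes, erythroid cells, cartilage and Schwann cells changed sign in some alternatives.

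**Figure D5:**
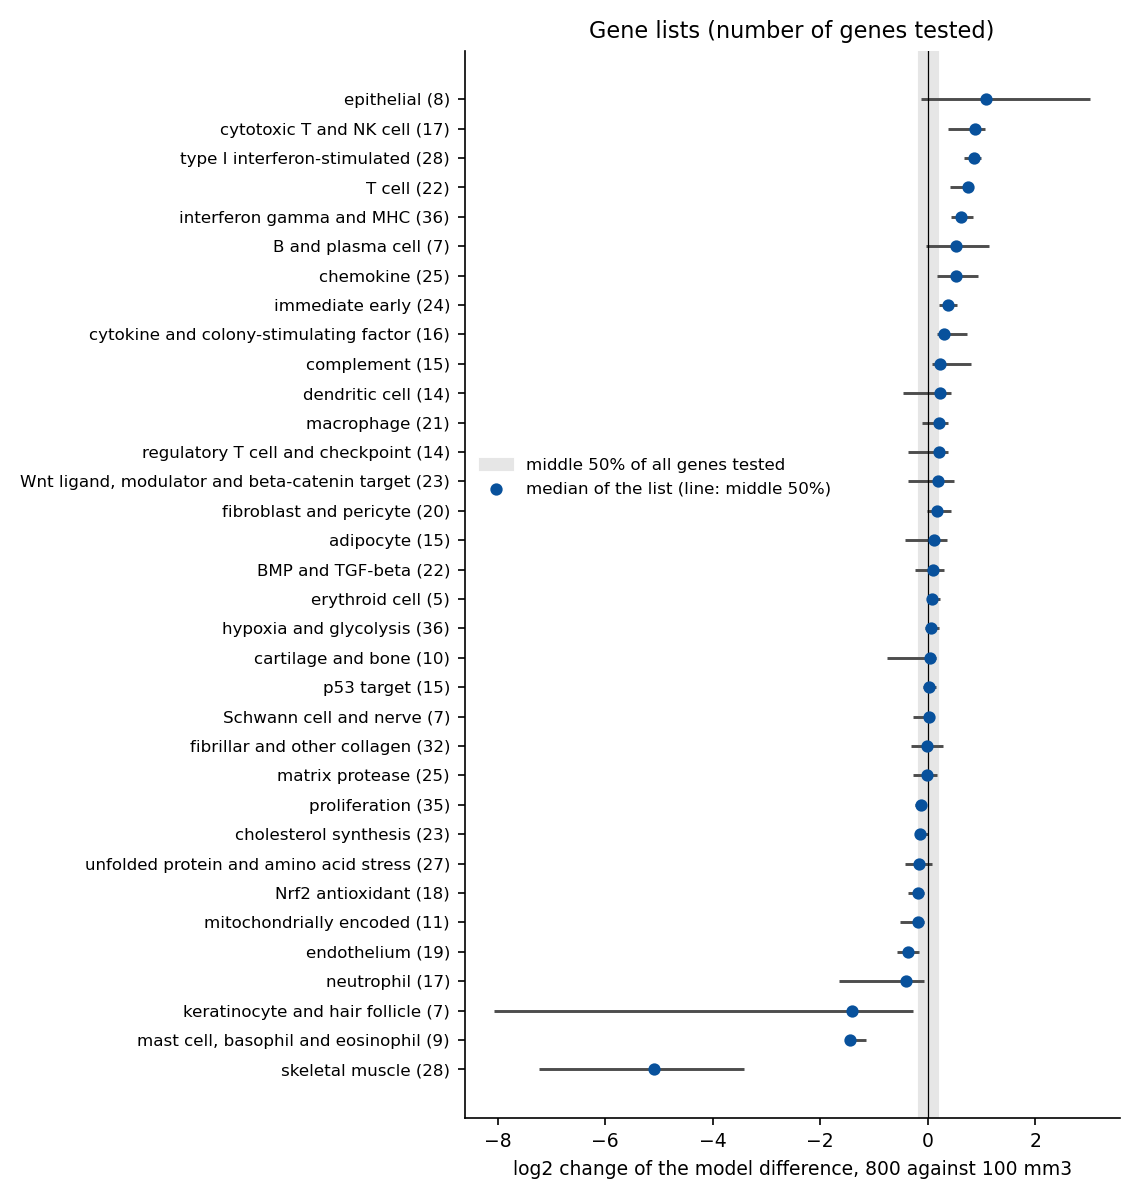
Median change of the model difference from 100 to 800 mm3 (x axis, log2) for the 34 lists with at least 5 genes tested, ordered by the median, with a line for the middle 50% of each list and a grey band for that of all genes tested. Muscle lies far to the left, epithelial, cytotoxic, type I interferon and T cell genes lie to the right, and most pathway lists lie within or near the band.

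The remaining pathway lists had medians of -0.17 to 0.19. These medians were 0.06 for hypoxia and glycolysis, 0.03 for p53 targets, -0.02 for collagens, -0.02 for matrix proteases, 0.10 for BMP and TGF-beta, 0.19 for Wnt ligands, modulators and beta-catenin targets, -0.14 for cholesterol synthesis, -0.17 for the Nrf2 antioxidant genes and -0.17 for unfolded protein and amino acid stress. Negative changes were found for 15 of 18 Nrf2 genes, 17 of 23 cholesterol genes and 18 of 27 genes of unfolded protein and amino acid stress. At an unadjusted p under 0.05 there were 3 Nrf2 genes, all negative. The medians of these lists kept their sign in every alternative. The medians of the hypoxia, collagen, p53 and matrix protease lists changed sign without some single tumors, and that of BMP and TGF-beta with the muscle covariate (-0.13). Among the Wnt genes, 14 of 23 were positive and none passed, with Wnt5a, a noncanonical ligand, at -1.03 (adjusted p = 0.29) and Wnt11 at 2.18 (adjusted p = 0.30).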

How the data were processed

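RNA from 24 tumors and 6 cultures was sequenced. The authors deposited estimated counts per gene and FPKM values, made with Array Studio on Ensembl release 78 genes; the aligner, the genome build and the handling of strand are not given in the sources used here. Of the nonzero deposited estimated counts 22.7% were not whole, and all were rounded. Of 53431 genes, 52207 (97.7%) had a symbol in the annotation used, and 16487 passed filterByExpr over the 6 tumor groups.

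A quasi-likelihood model of the 6 groups was fitted with edgeR 4.0.16 (R 4.3.3) after TMM scaling, and p-values were adjusted over all genes tested (Benjamini-Hochberg). The authors' thresholds were kept, an adjusted p of at most 0.1 and a log2 value of at least 1 in either direction. Standard errors were derived from the F statistic. CPM used TMM-scaled library sizes, for cultures from a scaling over all 30 libraries. The ratio of summed Krt18 counts was given with an exact interval, which covers counting error only.

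Named genes were the called genes with a mean of at least 100 counts in a group, filled to 10 in each direction by the lowest p; genes named after their values were seen are stated as such. The genes, lists and tests were chosen with earlier results of these data known. Alternatives used DESeq2 1.42.0, limma 3.58.1 on log2(FPKM + 1) and log2(FPKM + 0.1), other scalings, filters and designs, and the omission of each tumor. Promoter sequences were RefSeq's (GRCm38.p6), and positions and GC content came from GENCODE M21.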

Additional observations from a re-analysis of the deposited data

Results flagged for a closer look

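The change of the model difference from 100 to 800 mm3 was called for 8 genes, at an adjusted p of 0.028 to 0.085 (edgeR). All but Gm39822 were called in only 5 to 8 of the 24 fits that left out 1 tumor. The changes of the model difference were -2.47 for Gm39822, 1.28 for Gm2011, 2.84 for Gm9042, 1.05 for Styk1, 5.78 for Krt18, -3.20 for Dpep3, -1.54 for Dpep2 and -1.33 for Ceacam1, on the log2 scale.

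In 15 of 180 groups of 4 tumors, over the 23 named genes and the scores of 7 lists (skeletal muscle, type I interferon, neutrophil, proliferation, T cell, keratinocyte and mast cell), 1 tumor stood apart by Dixon's ratio (gap over range), where chance gives about 1 in 20 groups. Among genes, the lowest tumor stood apart for Luc7l in large CT-26 tumors (replicate 2, 62.95 CPM, ratio 0.886), for Nxf1 in small Colon 26 tumors (replicate 1, 118.4 CPM, 0.874) and for Med16 in small CT-26 tumors (replicate 2, 29.84 CPM, 0.952). The highest tumor stood apart for Clk4 in Colon 26 at 400 mm3 (replicate 4, 39.32 CPM, 0.903), Gm2011 in large CT-26 tumors (replicate 2, 0.574 CPM, 0.851) and Wdr62 in large CT-26 tumors (replicate 3, 23.7 CPM, 0.865). It did so too for Chrac1 in small (replicate 2, 34.16 CPM, 0.908) and large (replicate 1, 32.28 CPM, 0.863) Colon 26 tumors and for Med16 in small Colon 26 tumors (replicate 1, 44.71 CPM, 0.880).

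Among the list scores, skeletal muscle was high in CT-26 replicate 4 (ratio 0.973) and in Colon 26 replicate 1 (0.912), both at 400 mm3. Neutrophil genes were low in CT-26 replicate 4 at 400 mm3 (0.892) and high in CT-26 replicate 1 at 800 mm3 (0.885). Keratinocyte and hair follicle genes were high in Colon 26 replicate 4 at 100 mm3 (0.858) and in Colon 26 replicate 2 at 400 mm3 (0.954).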

How the results depend on the processing

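From 100 to 800 mm3, where 8 genes were called, DESeq2 called 62, a fit of all 30 libraries 39, a fit of only the compared sizes 5, the exact tumor volume as a covariate 5, no filter 1, limma on log2(FPKM + 1) 2 and on log2(FPKM + 0.1) 3. An adjusted p of at most 0.05 left 1 gene, no minimum fold change gave 38, and the skeletal muscle score as a covariate, chosen after seeing the data, gave 14. Leaving out 1 tumor gave 0 to 79 genes. From 100 to 400 mm3, where none was called, DESeq2 called 30 genes, all 30 libraries 28 and the exact volume 3, and leaving out 1 tumor gave 0 to 52. RLE scaling (8 genes), library size only (7), robust dispersion (8), at least 10 counts in every tumor (12) and the GC correction, chosen after seeing the data (11), stayed within 1.5 times the count of 8. The cause of these differences was not tested.

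No named gene reversed its direction in any alternative. The adjusted p of Ubald2 was 0.0285 or lower in all of them. The T cell median turned to -0.06 without CT-26 replicate 2 at 100 mm3, and with at least 10 counts in every tumor the epithelial median turned to -0.74 and that of mast cells, basophils and eosinophils, with 1 gene left, to 0.03. The BMP and TGF-beta median turned to -0.13 with the muscle covariate. No paired analysis was possible because the labels give no replicate numbers. Precision was limited by 4 tumors a group (median SE 0.19), and Krt18, Gm39822, Gm9042 and Dpep3 rest on few counts in some groups.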
